A study of Homo sapiens with 6 samples.

Results

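Laminin-332, the hemidesmosome and the epithelial integrins were described through 9 genes, chosen by name from a list of basement membrane adhesion genes: ITGA6, ITGB4, LAMA3, LAMB3, COL17A1, ITGA2, ITGA3, ITGB6 and ITGAV. These members, and the other gene lists below, were chosen with earlier results of these data known. Counts of called members beside the share of all features are therefore descriptions and no independent test of the set. The annotation of the array listed 15 probes for 7 of them and none for LAMA3 and COL17A1, which were not analysed here. ITGB6 was read by 1 probe that was not detected on any array, so 6 of the 9 genes, among 20046 named genes in all, gave values on all 6 arrays. A probe counted as detected if its deposited detection p, a comparison with the negative control beads of the same array, was under 0.01.

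The study measured RNA of 2 human lung cancer lines on Illumina HumanHT-12 v4 beadchips. Both are established lines: HCC95 derives from squamous carcinoma and H460 from large cell carcinoma. HCC95 cells carried the GFP control vector pSin-E2F-GFP-puro or the LZTFL1 vector pSIn-E2F-LZTFL1-ires-GFP-puro, each without treatment and with the cytokine TGFβ, and H460 cells carried either vector without treatment. LZTFL1 is a regulator of the traffic of cilium proteins. All 6 groups thus carried GFP and a puromycin resistance vector, the labels name no TGFβ dose or time, and each group had 1 array. No label speaks of repeated cultures.

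Basal epithelial cells hold on to the basement membrane through hemidesmosomes. In these, the integrin of the ITGA6 and ITGB4 products binds laminin-332, a laminin that holds the LAMA3 and LAMB3 products, and plectin and the DST product tie the integrin to keratin filaments. The ITGA3 product, paired with the ITGB1 product, also binds laminin-332, the ITGA2 product with the same partner binds collagen, and the ITGAV product pairs with several beta subunits. One of these is the product of ITGB6, and that pair can release active TGF-β from its latent complex.

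Probe intensities were background corrected and quantile normalized, and all levels below are log2 values after an offset of 16. Medians of the raw signal were between 104 and 125 per array, and between 14136 and 16423 of 47323 probes were detected, with the fewest on the arrays labelled TGFβ. The lowest detected value of an array was 5.33 to 5.70. The introduced gene itself did not check the labels. Its 1 probe read 5.75 in untreated HCC95 with GFP and 5.07 in untreated HCC95 labelled LZTFL1, where it was not detected, and 6.36 and 6.39 in H460. PMEPA1, a textbook TGF-β target, was lower on the arrays labelled TGFβ, at 7.16 with GFP and 6.21 with LZTFL1, than on the untreated arrays, at 9.38 and 9.53. Arrays are therefore named by their labels, and no direction below is a direction of verified LZTFL1 or TGFβ action. All 5 squamous markers with a probe were detected in HCC95, and in H460 these were 1 with GFP and 2 with LZTFL1. EPCAM, an epithelial surface marker, was not detected in H460, but KRT7, KRT8, KRT18 and KRT19, keratins of simple epithelia, were. In HCC95, KRT7 was not detected, and EPCAM, KRT8, KRT18 and KRT19 were. Of the white blood cell markers, CD14 read 9.50 and 9.64 in H460 while PTPRC and CD3E were not detected on any array. In the fibroblast list, PDGFRB was detected in H460 (7.57 and 7.16), COL1A1 and COL1A2 in untreated HCC95 at 5.43 to 5.72, and LUM, DCN and COL3A1 on no array. VWF, an endothelial marker, was detected in HCC95, at 5.76 and 5.59 untreated and 7.14 and 7.41 with the TGFβ label, while PECAM1 and CDH5 were not detected.

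The promoters of the 4 members that were lower with the LZTFL1 label in HCC95, as described below, are shown because these genes were called lower in the same fit. Each window runs from 250 bases before to 50 bases after the start of the gene's RefSeq entry, on build GRCh38.p14. Capitals mark letters matching TGANTCA (an AP-1 motif), CAGACA (a SMAD-type element) or CANNTG (an E box), searched on both strands.
LAMB3, chr1:209651325-209651624, minus strand: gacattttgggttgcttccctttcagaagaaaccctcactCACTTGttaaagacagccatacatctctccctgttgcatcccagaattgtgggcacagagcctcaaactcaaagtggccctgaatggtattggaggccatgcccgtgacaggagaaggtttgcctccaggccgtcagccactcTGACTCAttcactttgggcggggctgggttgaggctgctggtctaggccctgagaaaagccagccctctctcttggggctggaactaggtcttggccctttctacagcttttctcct
ITGA6, chr2:172427336-172427635, plus strand: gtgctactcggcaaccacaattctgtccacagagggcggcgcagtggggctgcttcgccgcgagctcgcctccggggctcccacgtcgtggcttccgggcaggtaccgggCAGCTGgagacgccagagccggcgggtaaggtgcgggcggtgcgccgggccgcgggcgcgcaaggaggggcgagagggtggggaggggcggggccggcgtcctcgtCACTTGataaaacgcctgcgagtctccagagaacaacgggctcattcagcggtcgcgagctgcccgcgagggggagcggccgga
ITGA2, chr5:52989102-52989401, plus strand: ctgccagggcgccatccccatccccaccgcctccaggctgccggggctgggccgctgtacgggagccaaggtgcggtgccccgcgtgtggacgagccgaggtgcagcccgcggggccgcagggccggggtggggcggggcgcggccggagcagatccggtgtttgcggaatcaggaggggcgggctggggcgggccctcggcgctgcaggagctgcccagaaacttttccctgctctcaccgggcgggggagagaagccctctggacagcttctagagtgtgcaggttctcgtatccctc
ITGAV, chr2:186599955-186600254, plus strand: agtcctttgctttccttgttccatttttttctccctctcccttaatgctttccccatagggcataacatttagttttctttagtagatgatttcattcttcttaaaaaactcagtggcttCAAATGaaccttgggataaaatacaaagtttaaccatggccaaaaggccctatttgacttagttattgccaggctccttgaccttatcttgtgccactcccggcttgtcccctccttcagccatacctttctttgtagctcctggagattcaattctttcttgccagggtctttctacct

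In these windows the AP-1 letters stood in LAMB3 alone, at position -67 from its start. ITGB4 and ITGA3 had no entry. Over 35116 RefSeq windows of 300 bases, 7.71% held TGANTCA, 16.9% held CAGACA and 68.7% held CANNTG. None of the 4 windows held CAGACA, and ITGA2 held no E box. The GC content was 72.0% in ITGA6 and 72.7% in ITGA2, against 53.7% in LAMB3 and 41.3% in ITGAV, so the 4 windows shared neither a motif of these 3 nor their base composition. A match is a description of letters and shows no bound factor.

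The chain of laminin-332 that was measured, LAMB3, set the 2 lines apart more than any other member. Its probe read 10.60 in untreated HCC95 with GFP, 10.11 with the LZTFL1 label, 10.25 with GFP and the TGFβ label and 9.74 with both labels. In H460 it read 6.16 with GFP and 5.81 with the LZTFL1 label, close to the lowest detected value of those arrays (5.59 and 5.38). The HCC95 arrays were all higher than both H460 arrays, and within HCC95 the GFP array was the higher of each vector pair.

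The hemidesmosome integrin subunits were ITGB4 and ITGA6. ITGB4, which pairs with ITGA6 alone, read 10.65 and 10.67 in untreated HCC95 with GFP and LZTFL1, 10.27 and 10.28 with the TGFβ label, and 7.52 and 7.08 in H460. The vector pairs of HCC95 thus differed by 0.02 and 0.01, and both H460 arrays were far lower. ITGA6 read 7.70 and 6.83 in untreated HCC95 with GFP and LZTFL1, 7.36 and 6.89 with the TGFβ label, and 6.53 and 6.22 in H460. Its arrays formed a sequence with no large gap, with both GFP arrays of HCC95 highest and the H460 arrays lowest.

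The alpha subunits of the other epithelial integrins had 2 kinds of pattern. ITGA3 read 9.93 and 10.23 in untreated HCC95 with GFP and LZTFL1, 10.12 and 10.07 with the TGFβ label, and 5.94 and 6.68 in H460. The 4 HCC95 arrays lay close to each other, spanning 0.30, and both H460 values were low. ITGA2 read 9.60 and 9.19 in untreated HCC95 with GFP and LZTFL1, 9.29 and 8.19 with the TGFβ label, and 7.62 and 7.76 in H460. The array with both the LZTFL1 and the TGFβ label stood below the other 3 HCC95 arrays by a wide gap. ITGAV read 10.28 and 9.74 in untreated HCC95 with GFP and LZTFL1, 9.51 and 8.82 with the TGFβ label, and 8.83 and 8.86 in H460. The HCC95 array with both labels was thus at the level of H460, 0.01 below the nearer H460 array. The ITGB6 probe read 4.35 to 4.58, below the lowest detected value of every array, so its partner role with ITGAV had no measured level.

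**Figure D1:**
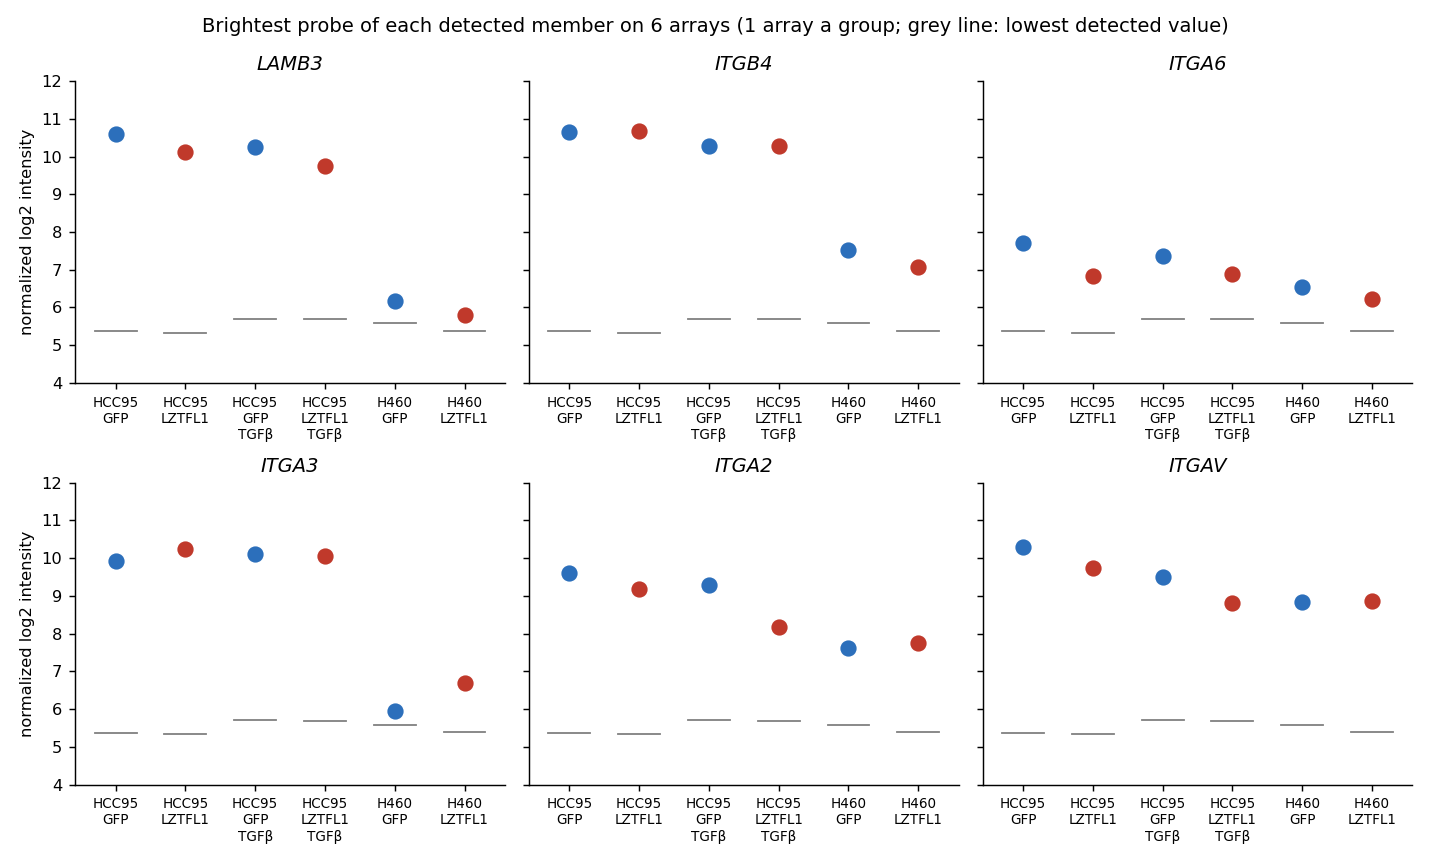
Normalized log2 intensity of the brightest probe of each of the 6 detected members on each array (blue, GFP vector; red, LZTFL1 vector; 1 array a group, so no error bars); grey lines mark the lowest detected value of each array. LAMB3, ITGB4 and ITGA3 drop between HCC95 and H460. Among HCC95 arrays, ITGA2, ITGAV and also LAMB3 are lowest where both labels are present.

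With 1 array a group, the order of neighbouring arrays has no replicate check. The spread between 2 probes of the same gene, an error of measurement only, was 0.20 (SD, in the H460 pair) to 0.36 (between the lines with GFP) for a difference of 2 arrays. Many neighbouring levels above differ by less than that, among them the vector pairs of ITGB4 in HCC95, the H460 pairs of ITGA2 and ITGAV and the TGFβ-labelled vector pair of ITGA3. The widest gaps between neighbours were those between the lines for LAMB3 (3.58), ITGA3 (3.25) and ITGB4 (2.75), each measured from the lowest HCC95 array to the higher H460 array. Gaps of 0.74 for ITGA3 within H460 and 0.64 for ITGAV, between the HCC95 array with GFP and the TGFβ label and the higher H460 array, were also above it, as was the gap of ITGA2 within HCC95. The spread is over genes of all levels, and ITGA3 in H460 with GFP read 5.94, near the lowest detected value of 5.59.

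Of the 15 probes, 7 were detected on all 6 arrays, 2 on some and 6 on none. The second ITGB4 probe (ILMN_2317543) read 8.84 and 9.11 in untreated HCC95 with GFP and LZTFL1, 8.34 and 8.69 with the TGFβ label, and 6.14 and 5.65 in H460. It was lower in H460 as the first was (-3.08, adjusted p = 3.3e-08 in a limma fit with every probe as a feature), but was higher by 0.27 and 0.35 with the LZTFL1 label in the untreated and TGFβ-labelled pairs. The second ITGA6 probe (ILMN_2267488) was detected on the GFP arrays of HCC95 alone, at 6.17 untreated and 5.79 with the TGFβ label, and on the arrays labelled LZTFL1 it was lower by at least 1.79-fold and at least 1.07-fold. The second ITGA3 probe (ILMN_1654074) was dim and detected on the untreated HCC95 arrays alone, at 5.76 with GFP and 5.78 with LZTFL1. The other LAMB3 probes were not detected.

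**Figure D2:**
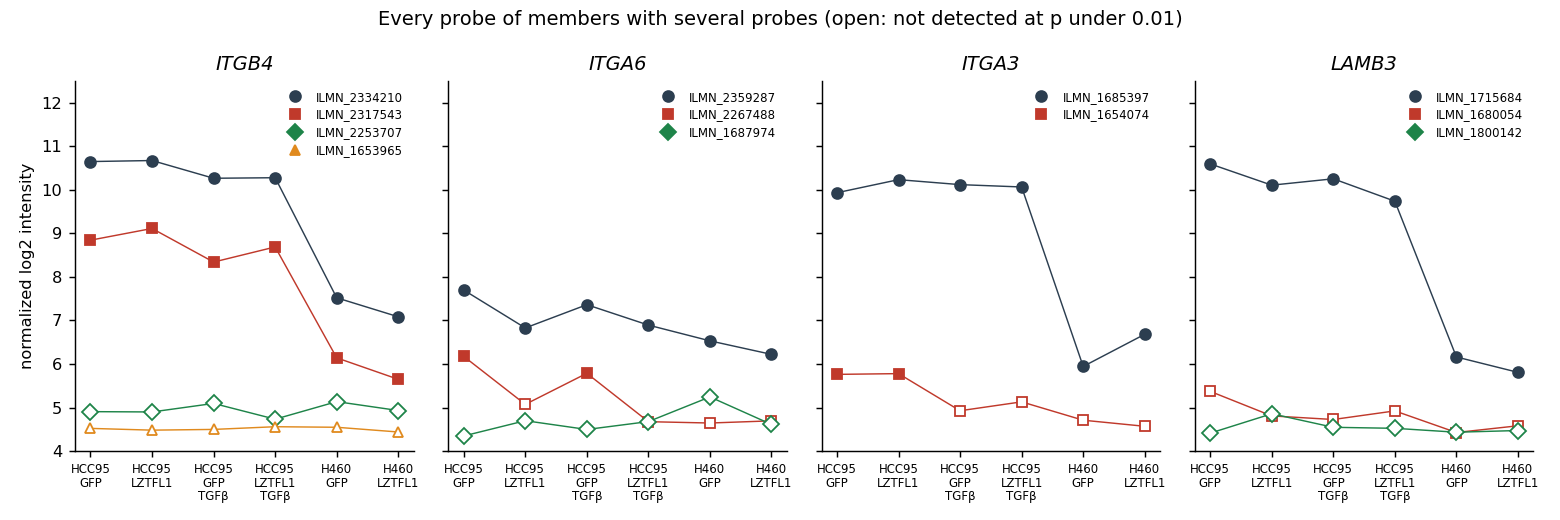
Normalized log2 intensity of every probe of the 4 detected members that had several probes, by array (1 array a group); filled symbols are detected at p under 0.01 and open ones are not. The 2 detected ITGB4 probes both drop from 8.34 or more in HCC95 to 7.52 or less in H460, and the second ITGA6 probe is detected on the HCC95 arrays with GFP alone.

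The first fit set the HCC95 arrays labelled LZTFL1 against those with GFP, in both treatment groups. Of 6 members tested, 4 fell with the LZTFL1 label, 0 rose and 2 did not pass, where 3.89% of all 12735 features fell and 3.74% rose (7.63% in either direction). ITGA2, the collagen receptor subunit, fell by 0.75 on the log2 scale (1.68-fold, SE 0.161, adjusted p = 0.00399, lower in 2 of 2 pairs), with differences of -0.40 in the untreated pair and -1.10 in the TGFβ-labelled pair. ITGAV fell by 0.62 (SE 0.139, adjusted p = 0.00602), with -0.54 and -0.69. LAMB3 fell by 0.50 (SE 0.131, adjusted p = 0.0167), with -0.49 and -0.52. ITGA6 fell by 0.67 (SE 0.192, adjusted p = 0.0303), with -0.87 and -0.47.

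The 2 members that did not pass were ITGB4, at 0.02 (SE 0.127, adjusted p = 0.956), and ITGA3, at 0.12 (SE 0.136, adjusted p = 0.652, with 0.30 and -0.05 in the pairs). The subunits of the hemidesmosome integrin were therefore not called alike: ITGA6 was called lower and ITGB4 was not, and the difference between the genes was not tested. The members' median was -0.56, against 0.01 over all features. The second ITGA6 probe, detected on the GFP arrays alone, gives only the bounds above and no test. In a fit with every probe as a feature of its own, added after seeing the data, the second ITGB4 probe stood at 0.31 (adjusted p = 0.263).

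These calls come from limma, fitted to the 4 HCC95 arrays with treatment as a term and Benjamini-Hochberg adjustment over all features, with 1 residual degree of freedom, so the SE rests mostly on genes of like brightness and the p-values measure no spread between cultures. The count was 0 of 6 without the mean-variance trend or without the treatment term (4 and 3 at an unadjusted p under 0.05), and 2 of 6, ITGA2 and ITGA6, with median scaling, where features called split into 290 lower and 110 higher against 496 and 476. The call of ITGA6 also ended without background correction (adjusted p = 0.0669) and with undetected values raised to the floor (adjusted p = 0.0623). Past 2-fold there was 1 member, ITGA2 in the TGFβ-labelled pair (2.14-fold lower), where 0.844% of features were 2-fold or more lower and 0.418% higher. There were 0 members in the untreated pair, where 0.600% of features were lower and 0.425% higher.

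Other genes of the same structures moved in this fit. Of 6 other hemidesmosome genes, KRT14, a basal keratin bound to hemidesmosomes, fell by 1.60 (SE 0.131, adjusted p = 2.04e-09) and DST, which encodes the plaque protein BP230, fell by 1.32 (SE 0.237, adjusted p = 0.000583). DST read 7.13 and 5.44 in untreated HCC95 with GFP and LZTFL1, and 6.79 and 5.84 with the TGFβ label. PLEC, which encodes plectin, stood at 0.05, the tetraspanin gene CD151 at -0.09, KRT5, the partner keratin of KRT14, at 0.01 and ERBIN at -0.41, none of which passed. Among ligands outside the basement membrane, TNC, which encodes tenascin-C, fell by 1.70 (adjusted p = 2.59e-08) and THBS1, which encodes thrombospondin-1, by 1.17 (adjusted p = 5.53e-05), and 3 of the 5 tested did not pass.

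Of the remaining lists, 0 of 3 other integrin subunits, 0 of 9 other laminin and basement membrane genes and 0 of 17 integrin adaptors passed (limma), with medians of -0.01, -0.06 and -0.04. With 7.63% of all features called, counts of 0 in lists of this size are near the background. LAMB2 (-0.59, adjusted p = 0.0584), FERMT1 (-0.42, adjusted p = 0.0737) and COL7A1 (-0.34, adjusted p = 0.0761), singled out after their values were seen, lay just short of the threshold. ITGB1, the beta partner of ITGA2, ITGA3 and ITGA6, stood at -0.01 (adjusted p = 0.984). At the level of the whole marker list, the summed linear level of the 5 squamous markers was 13844 and 12958 on the GFP arrays of HCC95 and 11841 and 11115.5 on those labelled LZTFL1, untreated and TGFβ-labelled in turn. KRT5, at 12.94 to 13.04, makes up most of that sum. The median of the 5 markers was 10.69 and 10.40 with GFP and 9.46 and 9.27 with LZTFL1, and DSG3 and DSC3, desmosomal cadherins, were lower along with KRT14: DSG3 read 9.75 and 9.17 with GFP and 8.67 and 8.16 with LZTFL1, and DSC3 10.34 and 9.59 against 9.39 and 8.90. SOX2, of the same list, went the other way, at 10.69 and 10.40 with GFP and 10.93 and 10.55 with LZTFL1. The part of these markers in the members' result was not tested.

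In H460, the same vector comparison rested on 1 pair of arrays and had no test of its own. Lower with the LZTFL1 label were ITGB4 (-0.44 on the log2 scale), LAMB3 (-0.35) and ITGA6 (-0.31). ITGA3 was higher by 0.74, ITGA2 by 0.14 and ITGAV by 0.04. The second ITGB4 probe stood at -0.49, close to the first. Several of these levels were near the lowest detected values of the arrays, 5.59 with GFP and 5.38 with LZTFL1. LAMB3 read 6.16 and 5.81, the second ITGB4 probe 6.14 and 5.65, and ITGA3 read 5.94 with GFP, so these differences are uncertain. No member passed 2-fold, where 0.0736% of features were 2-fold or more lower and 0.0809% higher.

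The LZTFL1 difference in H460 minus that in HCC95 was tested as an interaction over all 6 arrays, and 0 of 6 members passed (limma; 3 at an unadjusted p under 0.05), where 0.305% of 14101 features passed, 0.241% higher and 0.0638% lower. ITGA2 had the largest value, 0.88 (SE 0.290, adjusted p = 0.225), followed by ITGAV at 0.65 (SE 0.243, adjusted p = 0.326) and ITGA3 at 0.62 (SE 0.264, adjusted p = 0.409). ITGB4 stood at -0.45 (SE 0.239, adjusted p = 0.527). Of the other lists, TNC passed (2.08, adjusted p = 0.000456). KRT14 was also called, but it was not detected in H460 and its value restates the HCC95 difference. In simulated data with normal noise, a fit of this form recovered 17 of 100 differences of 1 on the log2 scale. Differences of the members' size could therefore go uncalled. With median scaling the features called split into 0 lower and 42 higher against 9 and 34.

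The next comparison set the HCC95 arrays labelled TGFβ against the untreated ones. Of 6 members tested, 2 fell with the TGFβ label, 0 rose and 4 did not pass, where 2.76% of 12735 features fell and 3.42% rose (6.17% in either direction). ITGAV fell by 0.85 (1.80-fold, SE 0.139, adjusted p = 0.00021, lower in 2 of 2 pairs), with -0.78 in the GFP pair and -0.92 in the LZTFL1 pair. ITGA2 fell by 0.66 (SE 0.161, adjusted p = 0.0113), with -0.31 in the GFP pair and a 2.01-fold lower level in the LZTFL1 pair. The latter was the one member difference past 2-fold, where 0.552% of features were 2-fold or more lower and 0.959% higher. In the GFP pair 0 members passed 2-fold, where 0.239% of features were lower and 0.650% higher.

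ITGB4 and LAMB3 did not pass. ITGB4 stood at -0.39 (SE 0.127, adjusted p = 0.0659), with -0.38 and -0.39 in the pairs, and its second probe at -0.46. LAMB3 stood at -0.36 (SE 0.131, adjusted p = 0.108), with -0.34 and -0.37. ITGA6 stood at -0.14, with -0.34 and 0.07, and ITGA3 at 0.01, with 0.19 and -0.17. This fit used the same 4 HCC95 arrays as the vector fit, and the members' median was -0.37 against 0.00 over all features.

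The calls in this fit also rested on the trend and the vector term: without either, 0 of 6 members passed (3 and 2 at an unadjusted p under 0.05, limma). The call of ITGA2 also ended without background correction (adjusted p = 0.059) and with the mean of probes (adjusted p = 0.0537). With median scaling the median of all features was -0.21, the features called split into 746 lower and 121 higher against 351 and 435, and 3 members were called, ITGAV, ITGA2 and ITGB4, at -0.85, -0.69 and -0.38 relative to that median. PMEPA1 differed by -2.77 in this fit (SE 0.195, adjusted p = 1.81e-10), against its textbook direction.

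**Figure D3:**
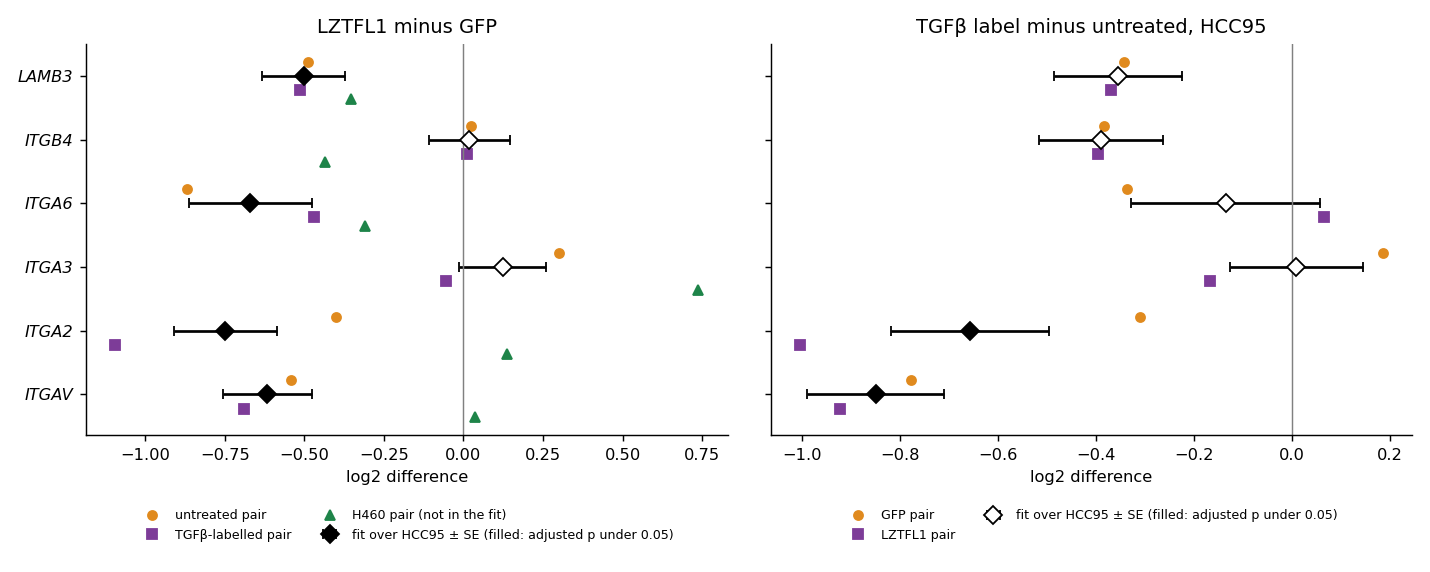
Log2 differences of the brightest probe of 6 members. The left panel gives LZTFL1 minus GFP and the right panel TGFβ label minus untreated; diamonds with bars are the fit over the 4 HCC95 arrays ± SE (filled where adjusted p was under 0.05) and coloured symbols are single pairs of arrays. LAMB3, ITGA6, ITGA2 and ITGAV lie below 0 in both HCC95 vector pairs, and ITGA2 moved most in the pairs that include the array with both labels.

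Among the partners and ligands, ITGB1 fell by 0.44 with the TGFβ label (SE 0.119, adjusted p = 0.0222), from 11.67 to 11.11 with GFP and from 11.55 to 11.22 with LZTFL1. It was the one called gene of 3 other integrin subunits. LAMB2, a laminin beta chain outside laminin-332, rose by 0.74 (SE 0.193, adjusted p = 0.0178), the one called gene of 9 in its list, while THBS1 fell by 1.07 (adjusted p = 0.000206) and TNC by 0.63 (adjusted p = 0.0129). None of 6 other hemidesmosome genes and none of 17 adaptors passed. With 6.17% of all features called in this fit, counts of 0 in lists of this size are near the background. A single called gene in a list of 3 or 9 describes that gene and not the list.

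For ITGA2 the array with both labels departed from the sum of the single differences. The LZTFL1 difference in the TGFβ-labelled pair minus that in the untreated pair was -0.69 on the log2 scale for ITGA2, -0.35 for ITGA3, -0.15 for ITGAV and 0.40 for ITGA6. For LAMB3 and ITGB4 these pair-to-pair differences were -0.03 and -0.01. The 4 arrays leave no residual degree of freedom for this quantity beside the vector and treatment terms, so it has no test. In the vector and TGFβ fits over HCC95 the same quantity was the only residual and was taken as error. ITGA2 had the largest such difference of the members, and its SE of 0.161 in both fits rested mostly on genes of like brightness.

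The 2 lines differed in every measured member. All 6 members were called lower in untreated H460 than in untreated HCC95, where 28.1% of 13803 features were called lower and 25.1% higher (53.2% in either direction). LAMB3 differed by -4.37 on the log2 scale (20.6-fold, SE 0.180, adjusted p = 8.47e-10), ITGA3 differed by -3.77 (13.7-fold, SE 0.189, adjusted p = 5.16e-09) and ITGB4 by -3.36 (10.3-fold, SE 0.179, adjusted p = 9.22e-09). ITGA2 differed by -1.70 (3.26-fold, SE 0.189, adjusted p = 8.6e-06), ITGAV by -1.17 (SE 0.180, adjusted p = 0.000143) and ITGA6 by -0.89 (SE 0.221, adjusted p = 0.00467). These are limma values from the 4 arrays without TGFβ, with a vector term and 1 residual degree of freedom. Without background correction the difference was -3.07 for LAMB3, -2.68 for ITGA3 and -2.71 for ITGB4, and with the mean of probes it was -2.45 for ITGA3, so the size of these folds depends on the processing.

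The gap was -4.44 with GFP and -4.30 with LZTFL1 for LAMB3, -3.99 and -3.55 for ITGA3, and -3.13 and -3.59 for ITGB4, whose second probe gave -2.70 and -3.46. All 6 members were lower in both pairs. Past 2-fold were 6 of 6 with GFP, where 11.5% of features were 2-fold or more lower and 11.5% higher, and 4 of 6 with LZTFL1, where 11.2% were lower and 10.8% higher. The members left under 2-fold there were ITGA6 (1.52-fold) and ITGAV (1.84-fold). The members' median was -2.53 against -0.01 over all features, and with median scaling, which moved the median of all features to -0.19 and the split of features called from 3877 lower and 3468 higher to 4262 and 2351, all 6 stayed called lower. In bulk RNA, fewer cells with a gene and less RNA per cell cannot be told apart.

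Other parts of the adhesion system differed in both directions, where 25.1% of all features were called higher and 28.1% lower. All 3 other integrin subunits tested were higher in H460, ITGB5 by 2.40 (5.29-fold, adjusted p = 5.03e-08), ITGA5, the fibronectin receptor subunit, by 0.94 (adjusted p = 0.00188) and ITGB1 by 0.59 (adjusted p = 0.00216). Of 10 other laminin and basement membrane genes, 7 were higher and 1 lower. LAMC1 was higher by 1.95 and LAMB1 by 1.60, chains of laminins outside laminin-332, and NID2 by at least 1.44-fold, as it was not detected in HCC95. COL7A1, which encodes the collagen of anchoring fibrils beneath hemidesmosomes, was lower (-1.60, adjusted p = 2.93e-06).

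Of the keratins tied to hemidesmosomes, KRT5 was at least 178-fold and KRT14 at least 27.5-fold lower in H460, where neither was detected. Both entered the fit through HCC95 alone, and NID2, FN1, VTN, FERMT3, THBS1 and FBLIM1 likewise through 1 line, so for these genes the bound and not the p describes the gap. The plaque genes PLEC and DST did not pass, at -0.47 and 0.44 (DST was lower in H460 than in HCC95 with GFP, at 6.77 against 7.13, and higher with LZTFL1, at 6.68 against 5.44), and CD151 was higher in H460 by 0.81 (adjusted p = 0.000193). Bounds of this kind set the bright line's mean against the lowest detected value of the dim line's arrays.

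Among ligands, FN1, which encodes fibronectin, was at least 4.81-fold and VTN, which encodes vitronectin, at least 2.10-fold higher in H460, THBS1 was at least 9.44-fold lower, and TNC was lower (-2.20, adjusted p = 0.000307). The 3 kindlin genes, whose products activate integrins, split. FERMT1, the epithelial kindlin, was lower in H460 (-2.96, adjusted p = 3.55e-08), and FERMT2 was higher by 1.59 and FERMT3, the kindlin of blood cells, by at least 12.1-fold. In all, 4 of 17 adaptors were higher and 6 lower, close to the 25.1% and 28.1% of all features, with PARVB, an adaptor beside integrin-linked kinase, higher by 1.72.

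**Figure D4:**
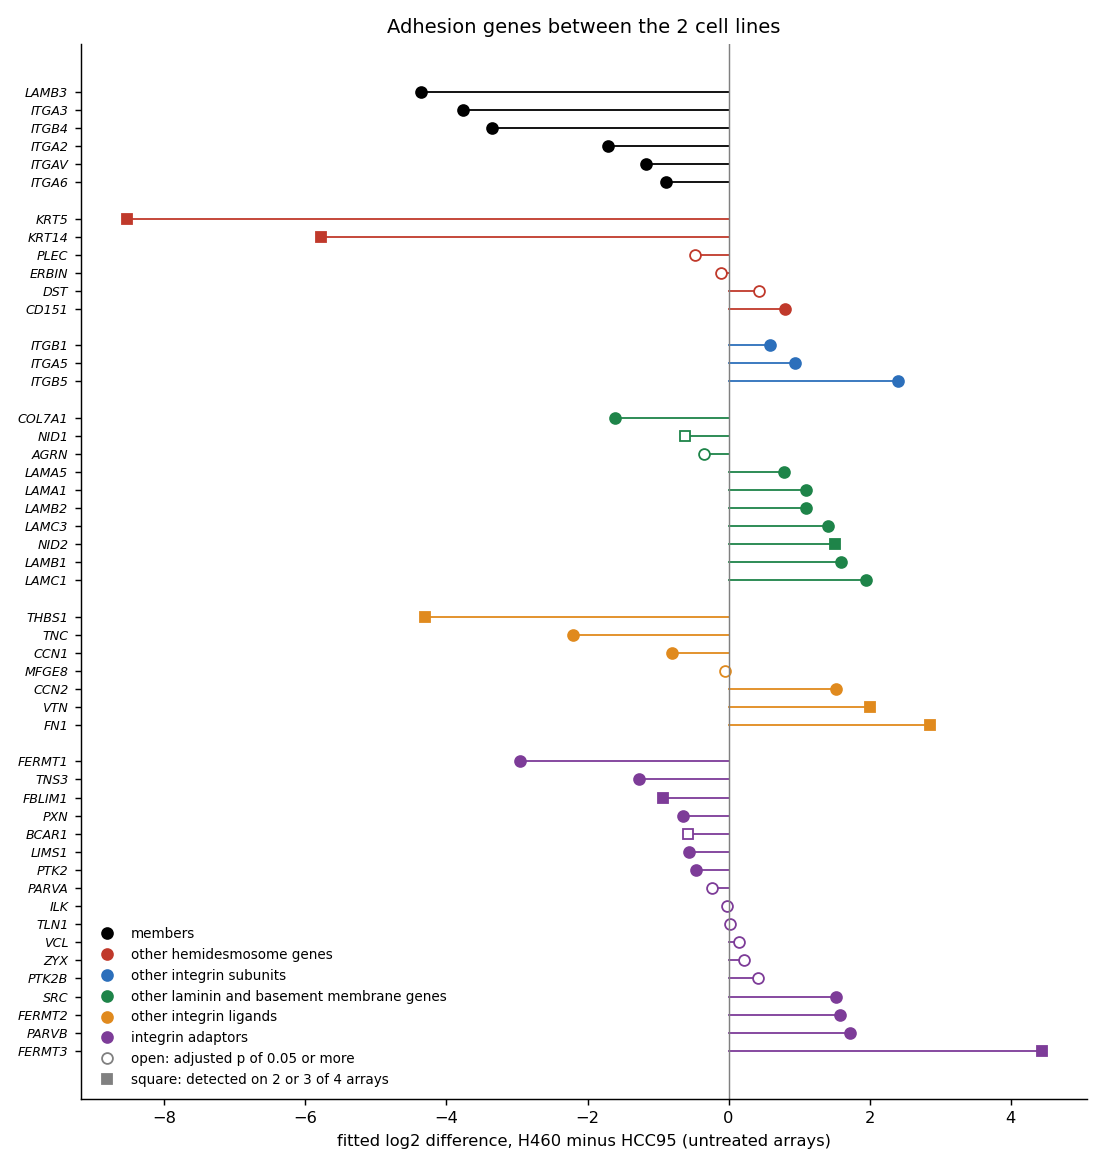
Fitted log2 difference, H460 minus HCC95, over the 4 untreated arrays for each tested adhesion gene, by list (colours); filled symbols have adjusted p under 0.05 and squares are genes detected on 2 or 3 of the 4 arrays, whose distance from 0 is not a bound. All 6 members lie below 0, from -4.37 for LAMB3 to -0.89 for ITGA6, while the 3 other integrin subunits lie above it.

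For each member, the gene with the most similar course over the 6 arrays was found among 8836 other genes whose values spanned at least 0.5, as the smallest root mean square difference of centred log2 values. ITGAV was followed most closely by ETNK1 (0.09), which read 7.92 and 6.68 in HCC95 without either label and with both. ITGA2 was followed by SMARCA2 (0.14), at 10.12 and 8.78 on the same arrays and detected on all 6, and ITGA3 by NAT10 (0.23). The nearest genes of ITGA6, ITGB4 and LAMB3 were RSF1 (0.10), VIPR1 (0.10) and EDN1 (0.16), none of which was detected in H460, so that their distances rest on H460 values set to the lowest detected value of the array. These are the closest of many candidates over 6 arrays that share a cell line or a label, and no test was made.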

How the data were processed

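Per the labels' protocols, RNA was hybridised to Illumina HumanHT-12 v4 beadchips, 1 array for each of 6 groups, which were taken from the sample titles. The authors deposited raw signal intensities and, beside each, a detection p-value in steps of 1 in 770. A second deposited table holds processed intensities on a linear scale, with a median of 13.1 in every column and the same ranks as the signal; scale and order are known from the values, the method is not. GenomeStudio 2011.1 is named in the submitters' processing notes.

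From these signals, values were made with neqc of limma 3.58.1 (R 4.3.3), with an offset of 16, quantile normalization and log2. Offsets draw dim values together, so folds of dim genes are understated. Of 47323 probes, 30113 had 1 gene symbol, 8 several and 17202 were not listed. For 30074 probes the gene identifier was matched to a RefSeq gene, and the symbol given there was used. A gene was represented by its probe of highest mean, and probes with several symbols or none stayed as unnamed features (37256 in all). Fits took features detected on at least 2 of their arrays, with eBayes and a trend and Benjamini-Hochberg at 0.05. In a pair, an undetected value was raised to the array's lowest detected value, and 2-fold, 1 on the log2 scale, was counted. Beside all 9 members, up to 4 called genes per list and fit were named, by size, with the others where a sentence accounts for a list.

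On simulated data with 200 changed features, the vector, treatment and line fits recovered 89, 91 and 85 of 100 changes of 1, and 100 of 100 changes of 2. Among the unchanged features, 14, 17 and 16 were called. The noise was normal at the fitted variances, in a single draw. The real fits called 972, 786 and 7345 features, so their recovery can differ from the simulated one. Members and lists were chosen with earlier results of these data known.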

Additional observations from a re-analysis of the deposited data

How the results depend on the processing

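All 6 members stayed called lower in H460 under all 11 alternatives. The LZTFL1 count of members, 4, was 3 without background correction or with undetected values raised to the floor and 2 with median scaling. It was 0 without the trend or without the treatment term. Over all features 972 became 400 with median scaling, 522 without background correction and 535 with the mean of probes. Without the trend there were 86 features called and without the treatment term 5. The TGFβ count of members, 2, was 3 with median scaling, 1 without background correction or with the mean of probes and 0 without the trend or the vector term. Over all features 786 became 447 without background correction, 443 with the mean of probes, 55 without the trend and 9 without the vector term. The 43 features whose LZTFL1 difference differed between the lines became 8 under an offset of 50, 8 for the mean of probes, 12 without background correction, 0 without the trend (limma; 1254 at an unadjusted p under 0.05), 107 without the detection filter, 0 with undetected values raised to the floor (1424) and 6 with named genes only, an alternative added after seeing the data; 0 members were called under any. The causes were not tested. ITGA3 turned with the TGFβ label, from 0.01 to -0.21 with median scaling and -0.37 with the mean of probes, and was called in neither. Relative to the median of all features, ITGA3 stood at -0.003 with median scaling and -0.36 with the mean of probes. ITGA2 was called in 10 of 12 settings with the LZTFL1 label and in 8 with the TGFβ label, ITGAV in 9 and 10, LAMB3 in 9 with the LZTFL1 label and ITGA6 in 8. Of 294 recomputed pair differences, 264 moved by less than the spread between probes and 0 differences of 2-fold or more changed sign. No paired analysis was possible because every group has 1 array and the same replicate number, which pairs nothing beyond the treatment and vector terms already fitted. The number of arrays limits the precision, and H460 levels of LAMB3 and ITGA3 near the lowest detected value limit how wide the gap between the lines can be read.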
